A study of Homo sapiens with 6 samples.

Results

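The genes described here are 10 transcription factors and regulators of the early growth response: the Jun genes JUN, JUNB and JUND, the Fos genes FOS, FOSB, FOSL1 and FOSL2, and ATF3, EGR1 and IER2. They were chosen by name, with earlier results of these data known. Each symbol matched 1 of the 60664 Ensembl identifiers in the deposited count table. All 10 passed the filter on low counts. Messenger RNA was sequenced from 6 libraries labelled HCT8, an established human colorectal cancer cell line grown in medium with fetal bovine serum. In 3 of them the transfected plasmid was the control (genotype WT, called control here), and in the other 3 it was the GPT1 overexpression plasmid (genotype GPT1 overexpression, called GPT1). GPT1 is an alanine aminotransferase of the cytosol, encoded by GPT, and the stated aim of the series was to find the signalling pathway that it regulates. Every library is a culture of the same line. The labels name neither the promoter of the plasmid nor the time after transfection, and do not say whether the replicates were separate cultures, so that p-values measure the spread between these libraries, which may be technical.

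AP-1 is not 1 protein but a set of dimers. Jun, Fos and ATF proteins share a basic region that touches DNA and a leucine zipper through which they pair. Jun proteins can pair with each other or, more stably, with Fos proteins, whereas Fos proteins do not form stable homodimers. Several of these genes, with the zinc-finger factor gene EGR1, are immediate-early genes, transcribed within minutes of growth factor or stress signals from transcription factors already present in the cell. In intestinal epithelium AP-1 is known as an effector of growth factor, Wnt and stress signalling.

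The libraries held 21255655 to 32487217 counts. GPT had 3 to 14 counts in the control libraries and 96886 to 106063 in the GPT1 libraries, so that the targeted gene followed the labels. Of the epithelial and intestinal markers, KRT8 stood at 529 and 352 CPM (control and GPT1 means), KRT18 at 261 and 171, and CDH1 at 50.1 and 12.5. KRT19 stood at 51.2 and 11.4 CPM, EPCAM at 24.9 and 9.28, and CDX2 at 41.7 and 45.3. VIL1 had 12.3 and 3.17 CPM and LGALS4 3.91 and 0.81 CPM. The intestinal markers KRT20 and CDX1 were close to 0 and not tested. Summed over the 10 epithelial markers, the libraries held 897 to 1023 CPM (counts scaled to a common library size) in the controls and 564 to 623 CPM in the GPT1 group. Of the 8 tested, 7 fell and CDX2 did not pass (log2 fold change 0.12, edgeR adjusted p = 0.448). KRT8 (-0.59) and KRT18 (-0.61), the most abundant of them, fell the least. The log2 fold changes of EPCAM (-1.42), VIL1 (-1.96), CDH1 (-2.01), KRT19 (-2.17) and LGALS4 (-2.26) were each lower than that of JUN (-1.13). The 6 neural and kidney-line markers summed to 407 to 512 and 191 to 197 CPM, with 3 of 5 tested lower and NEFM the highest of them (293 and 104 CPM), the 6 fibroblast markers to 22.1 to 25.9 and 20.6 to 23.0 CPM, and the 6 leukocyte markers to 3.26 to 4.52 and 2.95 to 3.39 CPM, with CD3E at 0 in every library. The 3 endothelial markers summed to at most 0.659 CPM in any library. The part of the epithelial and neural differences in the results below was not tested, and in bulk RNA fewer cells of a type and less RNA per cell cannot be told apart. Libraries also differed in how counts depended on GC content: the deviation of each gene from its mean correlated with the GC percent of its transcript at -0.52 in control replicate 3 and 0.47 in GPT1 replicate 1, against -0.12 to 0.27 in the other 4 libraries (Spearman, across 17436 genes, which are not independent). The log2 fold change between the groups also correlated with GC percent (0.31) and transcript length (-0.33) across these genes. Values corrected for transcript length and GC content are therefore given beside the main ones. The correction also removes any part of the group difference that follows length or GC, whatever its origin.

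Regulatory sequence upstream of the start is shown for the 4 genes that fell (JUN, ATF3, FOS and EGR1) and for JUND, a Jun gene that did not. RefSeq promoter windows on GRCh38.p14 covered 9 of the 10 genes, with 2 windows for ATF3, and the 250 bases before each start were searched on both strands for 7 motifs. In the JUN and ATF3 stretches the capitals mark TGACATCA, a variant of the cyclic AMP response element (CRE) that was added to the search after the sequences had been read. In the FOS stretch they mark the TATA box (TATAAA), in the EGR1 stretch the CArG boxes, to which serum response factor is known to bind, and in the JUND stretch the CRE itself (TGACGTCA).
JUN, chr1:58784096-58784125, minus strand: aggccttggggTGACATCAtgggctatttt
ATF3, chr1:212565273-212565302, plus strand: cacctatgataTGACATCAtatggccactc
FOS, chr14:75278783-75278812, plus strand: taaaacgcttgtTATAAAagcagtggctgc
EGR1, chr5:138465229-138465478, plus strand: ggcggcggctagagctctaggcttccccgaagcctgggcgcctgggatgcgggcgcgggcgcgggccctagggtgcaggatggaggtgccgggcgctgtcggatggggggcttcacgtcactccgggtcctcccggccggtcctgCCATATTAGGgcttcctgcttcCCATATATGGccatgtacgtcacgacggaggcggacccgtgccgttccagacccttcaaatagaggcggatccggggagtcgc
JUND, chr19:18281623-18281872, minus strand: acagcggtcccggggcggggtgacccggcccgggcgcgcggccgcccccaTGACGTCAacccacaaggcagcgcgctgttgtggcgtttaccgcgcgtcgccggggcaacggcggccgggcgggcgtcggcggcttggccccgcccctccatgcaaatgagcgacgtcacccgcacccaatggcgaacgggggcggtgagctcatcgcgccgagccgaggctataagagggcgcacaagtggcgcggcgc

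Counting from the RefSeq start, with -1 the base before it, TGACATCA lay at -67 to -60 in JUN and at -123 to -116 in the upstream window of ATF3, and 2.37% of 35116 promoter windows held it. The EGR1 window held CArG boxes at -105 to -96 and -83 to -74, a motif found in 1.16% of windows. The CRE of JUND lay at -200 to -193 (1.65% of windows). TATAAA stood at -33 to -28 in FOS, -31 to -26 in JUNB and -30 to -25 in FOSB (10.7% of windows). In the downstream ATF3 window it lay farther from the start, at -230 to -225. Neither the AP-1 site TGANTCA (6.57% of windows) nor the EGR1 binding site GCGTGGGCG (0.72%) was found in any of the 10 windows, which says only that these letters are not in them. The GC box GGGCGG was present in 42.6% of windows and in those of JUN, JUND, FOS, FOSB, FOSL2, IER2 and the upstream start of ATF3. The whole JUN window lies inside the single exon that GENCODE 29 gives JUN, whose start is upstream of the RefSeq one, and the FOS stretch likewise lies inside the GENCODE 29 gene. All 250 bases of the FOSL2 window and of the downstream ATF3 window also lie inside the GENCODE 29 genes. Counts per gene do not tell which start was used.

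JUN, ATF3, FOS and EGR1 were lower in the GPT1 libraries and the other 6 genes did not pass the test. These 4 of 10 fell by 1.72-fold to 2.35-fold, beside 14.6% of the 17638 genes tested that fell, and 0 of 10 rose, beside 10.5% (edgeR quasi-likelihood test, Benjamini-Hochberg adjusted p under 0.05 over all genes tested). The 10 genes had a median log2 fold change of 0.01 and all genes tested one of -0.02. Since the 10 were chosen with earlier results of these data known, these shares are given without a test. For the count of 0, 1 of the 10, FOSL1, was higher at an unadjusted p under 0.05, and 0 were higher by DESeq2 or limma voom. The libraries of the groups did not overlap in 6 of the 10, namely the 4 that fell, FOSL1 and FOSL2, beside 43.4% of all genes tested. Together the 10 genes took 0.266% to 0.326% of all counts in the control libraries and 0.157% to 0.167% in the GPT1 libraries, more of it from JUN and ATF3 than from the other 8 genes in every library. The 4 falls kept their direction and stayed past the threshold in each of the alternative analyses run, including the corrected one and each with 1 library left out.

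**Figure D1:**
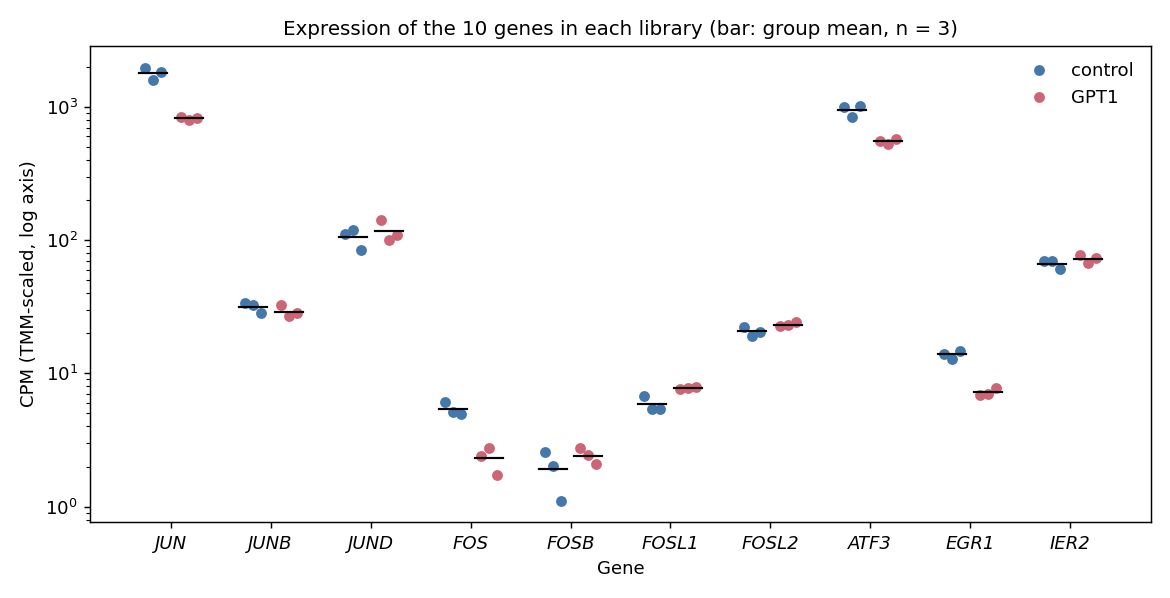
Expression of the 10 genes as TMM-scaled CPM on a log axis, with 1 point per library (3 control, 3 GPT1) and a bar at each group mean. The points of JUN, FOS, ATF3 and EGR1 lie lower in all 3 GPT1 libraries than in any control library, while those of JUNB, JUND, FOSB and IER2 overlap.

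Among the Jun genes only JUN changed past the threshold. JUN (ENSG00000177606, GRCh38 chromosome 1, 58780788 to 58784327, minus strand, protein-coding, a single exon) encodes c-Jun, the strongest activator of the family. It stood at 1973, 1584 and 1838 CPM in the control libraries and at 838, 798 and 826 CPM in the GPT1 libraries. Every GPT1 library was below every control library, and the GPT1 values lay closer together than the control values. The log2 fold change was -1.13 ± 0.09 (SE; 95% interval -1.34 to -0.92; edgeR adjusted p = 5.14e-05), a 2.19-fold fall. Only 2.8% of the genes tested had a lower fold change. Even after the fall JUN remained among the abundant transcripts: per kilobase of transcript it ranked 70 to 95 of 17436 genes in the control libraries and 236 to 240 in the GPT1 libraries.

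JUNB (chromosome 19, 12791496 to 12793315, plus strand) encodes a Jun protein that is a weaker activator and can oppose c-Jun. Its values of 33.5, 32.5 and 28.2 CPM in the controls overlapped those of 32.4, 26.8 and 28.2 CPM in the GPT1 group. The log2 fold change was -0.11 (95% interval -0.37 to 0.15, edgeR adjusted p = 0.51). After the length and GC correction it was -0.22 ± 0.07 (SE; adjusted p = 0.0311), with corrected values that no longer overlapped, 30.9 to 33.6 against 27.7 to 28.3 CPM. Exons of HOOK2 on the opposite strand share 259 bases with JUNB, and as no source used here states whether the counting used strand, reads in these bases cannot be told apart.

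JUND (chromosome 19, 18279760 to 18281622, minus strand), which encodes the Jun protein most abundant in resting cells, stood at 112, 120 and 84.0 CPM in the controls and 143, 99.5 and 110 CPM in the GPT1 libraries. The groups overlapped, with the lowest value in control replicate 3 and the highest in GPT1 replicate 1, the libraries with the steepest GC trends. The JUND transcript has 69.7% GC, the highest of the 10 genes and above the median of 49.0% of all genes tested. Its log2 fold change of 0.16 (95% interval -0.18 to 0.49, edgeR adjusted p = 0.467) was 0.05 after correction, and -0.01 when GPT1 replicate 1 was left out. The interval excludes a fall of the size seen for JUN.

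These unequal changes altered the make-up of the Jun transcript pool. Per kilobase of the longest GENCODE 29 transcript, the 3 Jun genes summed to 636, 530 and 580 CPM per kilobase in the controls and 331, 293 and 308 in the GPT1 libraries. JUN made up 87.6%, 84.5% and 89.5% of this pool in the controls and 71.5%, 76.8% and 75.8% in the GPT1 libraries. The groups did not overlap, and p was 0.1 in an exact two-sided permutation test, which with 3 against 3 libraries cannot give less. The JUND share was 9.79% ± 2.19 and 20.2% ± 2.61 (SD, n = 3 per group), and the JUNB share 2.98% ± 0.36 and 5.14% ± 0.20. JUN thus remained the main Jun transcript in every library. The difference in the JUN share, -12.5 percentage points, was -7.97 when levels were not divided by length.

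**Figure D2:**
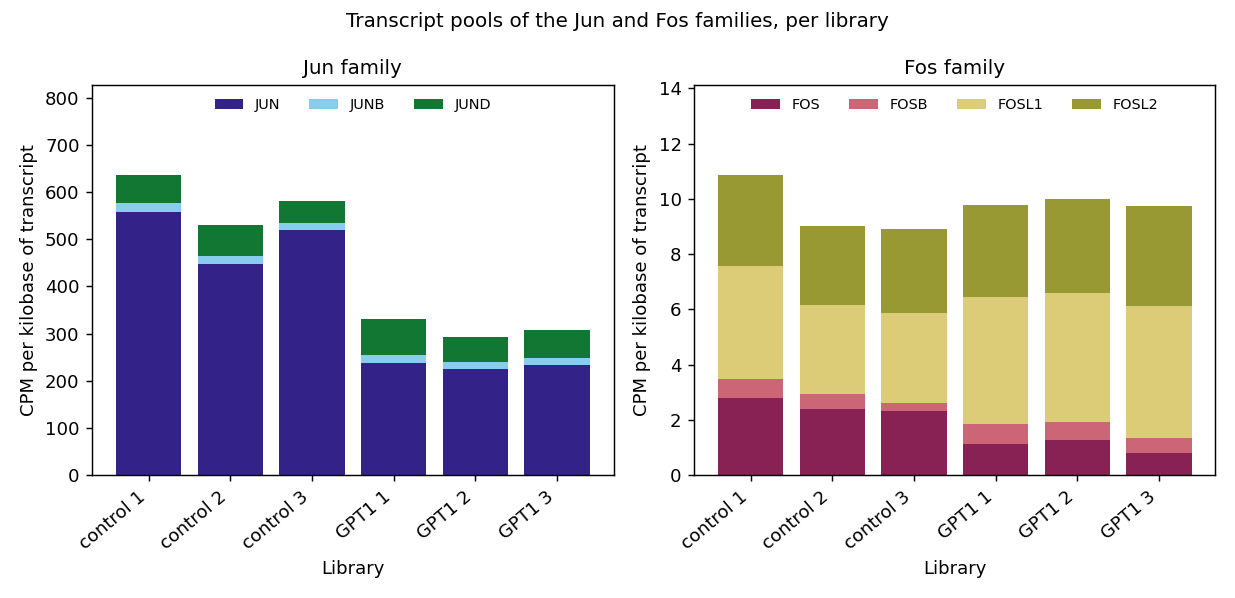
Stacked transcript levels of the Jun genes (left) and Fos genes (right) in each library, as TMM-scaled CPM per kilobase of the longest transcript, on separate linear axes. The Jun pool is lower in the GPT1 libraries through JUN (dark segment), whereas the Fos pool has a similar height in both groups with a smaller FOS segment.

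The Fos transcripts were much scarcer than the Jun transcripts, and only FOS fell. FOS (chromosome 14, 75278774 to 75282230, plus strand) encodes c-Fos, the classic immediate-early partner of c-Jun. It had 6.05, 5.14 and 4.99 CPM in the controls, from 108 to 198 counts, and 2.41, 2.75 and 1.73 CPM in the GPT1 libraries, from 53 to 84 counts. The groups did not overlap, and the log2 fold change of -1.23 ± 0.19 (SE; 95% interval -1.65 to -0.82; edgeR adjusted p = 0.00198) was the lowest of the 10 genes, although its interval includes the JUN estimate. At such counts FOS transcripts were rare in both groups, at ranks 10483 to 11254 of 17436 per kilobase of the longest transcript in the controls.

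FOSL1 (chromosome 11, 65892049 to 65900573, minus strand) encodes FRA1, a Fos protein without a strong activation domain of its own that is known to be induced by sustained ERK signalling. It stood at 6.79, 5.40 and 5.41 CPM in the controls and 7.66, 7.77 and 7.95 CPM in the GPT1 libraries. The groups did not overlap and the 3 GPT1 values lay within a narrow range. The log2 fold change of 0.41 ± 0.14 (SE; 95% interval 0.10 to 0.71) did not pass, with an edgeR adjusted p of 0.0529. It passed without control replicate 1 (0.54, adjusted p = 0.0449), with RLE or upper-quartile scaling (adjusted p = 0.0471 and 0.0392) and with a filter of at least 1 CPM in 3 libraries (0.0477), and did not pass after the length and GC correction (0.30, adjusted p = 0.0883).

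FOSL2 (chromosome 2, 28392448 to 28417312, plus strand), which encodes the related FRA2, had 22.2, 19.2 and 20.6 CPM in the controls and 22.5, 23.0 and 24.3 CPM in the GPT1 libraries. The groups were separated by a small gap, and the log2 fold change of 0.17 (95% interval -0.07 to 0.41) gave an edgeR adjusted p of 0.272. After the length and GC correction FOSL2 was higher by 0.27 ± 0.08 (SE; adjusted p = 0.0173). FOSB (chromosome 19, 45467995 to 45475179, plus strand), an immediate-early relative of FOS, had the lowest level per kilobase of the 10 genes in both groups, and stood at 2.57, 2.03 and 1.11 CPM against 2.74, 2.43 and 2.09 CPM from 24 to 85 counts. Its groups overlapped, and the wide interval of -0.26 to 0.88 (log2 fold change 0.31, edgeR adjusted p = 0.397) leaves room for a moderate rise. FOSB lies within the span of ERCC1 on the opposite strand, with no shared exon bases.

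Summed per kilobase, the 4 Fos genes stood at 10.9, 9.02 and 8.92 CPM per kilobase in the controls and 9.79, 10.0 and 9.74 in the GPT1 libraries, which overlapped (exact two-sided permutation p = 0.9). Within that pool FOS made up 26.1% ± 0.31 in the controls and 10.8% ± 2.33 in the GPT1 libraries (SD, n = 3 per group). FOSL1 and FOSL2 together made up 67.9%, 67.6% and 70.8% against 81.2%, 80.8% and 86.1%, without overlap (exact two-sided permutation p = 0.1, again the lower limit), a difference of 13.9 percentage points that was 8.29 without length. The ratio of the summed Jun to the summed Fos level was 58.5, 58.7 and 65.0 in the controls and 33.8, 29.4 and 31.6 in the GPT1 libraries (exact two-sided permutation p = 0.1). Jun transcripts thus exceeded Fos transcripts in every library, by less in the GPT1 group. The ratio and the Fos sums use the longest transcripts, for FOS 2158 bases against a median of 815, and were not recomputed with other lengths. These pools are of transcripts, and proteins were not measured.

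ATF3, EGR1 and IER2 complete the set. ATF3 (chromosome 1, 212565334 to 212620777, plus strand) encodes a stress-induced factor of the same zipper class, which acts mostly as a repressor on its own and can pair with Jun proteins. It had 1001, 838 and 1016 CPM in the controls and 556, 529 and 577 CPM in the GPT1 libraries, all of the latter below all of the former. The log2 fold change was -0.78 ± 0.09 (SE; 95% interval -0.98 to -0.57; edgeR adjusted p = 0.000498), a 1.72-fold fall. Per kilobase ATF3 stood at ranks 80 to 110 of 17436 in the controls and 194 to 215 in the GPT1 libraries, and in every library JUN and ATF3 stood above the other 8. In the control libraries the per-kilobase levels of JUN (508 ± 55.8) and ATF3 (453 ± 47.1 CPM per kilobase, SD, n = 3) differed by about their spread. With these lengths the order turned in the GPT1 libraries, with JUN at 232 ± 5.83 and ATF3 at 264 ± 11.4. This order rests on the longest transcripts, since the 11 ATF3 transcripts in GENCODE 29 have a median length of 858 bases against 2103 for the longest. Not divided by length, JUN stood above ATF3 in both groups. The means were 1798 and 952 CPM in the controls and 820 and 554 CPM in the GPT1 libraries.

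EGR1 (chromosome 5, 138465490 to 138469315, plus strand) encodes a zinc-finger factor induced by ERK signalling through the serum response factor. It stood at 13.9, 12.9 and 14.8 CPM in the controls and 6.92, 6.98 and 7.78 CPM in the GPT1 libraries. The GPT1 values were near one another and well below the controls, with a log2 fold change of -0.94 ± 0.12 (SE; 95% interval -1.21 to -0.66; edgeR adjusted p = 0.000928). IER2 (chromosome 19, 13150415 to 13154908, plus strand) encodes a small nuclear protein of the immediate-early class. It had 69.6, 69.9 and 60.6 CPM in the controls and 78.0, 66.8 and 73.3 CPM in the GPT1 libraries. These overlapped, and the log2 fold change of 0.12 (95% interval -0.09 to 0.34, edgeR adjusted p = 0.367) excludes a fall as large as that of EGR1. AC011446.2 on the opposite strand shares 946 exon bases with IER2 but had at most 6 counts in any library.

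**Figure D3:**
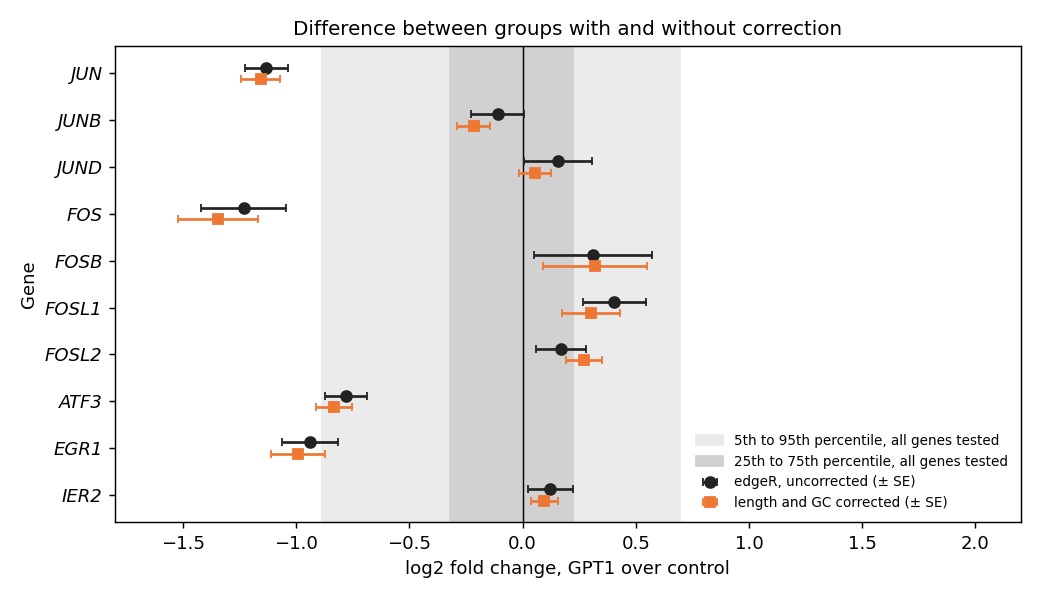
Log2 fold change of each gene (GPT1 over control, ± SE) in the main edgeR fit (circles) and after correction of each library for transcript length and GC content (squares). The bands hold the middle 50% and 90% of all genes tested in the main fit, not the corrected one. JUN, FOS and EGR1 lie below the 90% band and ATF3 lies within its lower end. The squares of JUND, FOSL1 and IER2 lie nearer to 0 than their circles, and those of the other genes farther from it.

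Per kilobase of the longest transcript, the order of the 10 genes in the control libraries was JUN, ATF3, JUND, IER2, JUNB, EGR1, FOSL1, FOSL2, FOS and FOSB, with means of 508, 453, 56.5, 22.7, 17.3, 4.42, 3.51, 3.08, 2.50 and 0.50 CPM per kilobase. Of neighbours in this order, JUN and ATF3 overlapped in their control libraries, as did FOSL1 and FOSL2. In the GPT1 libraries EGR1 (2.30) had dropped below FOSL1 (4.67) and FOSL2 (3.47), and FOS (1.07) stood nearer to FOSB (0.64). These places depend on the length used and were not recomputed with other lengths. For FOS the longest transcript has 2158 bases against a median of 815, and for ATF3 2103 against 858.

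The genes whose pattern over the 6 libraries lay nearest to that of JUN were ATP1B1, which encodes a sodium pump subunit, SORL1, a sorting receptor gene, TGM2, the tissue transglutaminase gene, SEMA4G, a semaphorin gene, and FN1, the fibronectin gene. Nearness is the Euclidean distance between log2 CPM values centred on each gene's mean, over 6 libraries and 11535 other genes with a mean of at least 5 CPM. The distances were 0.20 for ATP1B1, 0.21 for SORL1 and TGM2, and 0.23 for SEMA4G and FN1, and the log2 fold changes of the 5 genes ran from -1.16 (TGM2) to -1.02 (FN1). Among the 10 genes EGR1 was nearest to JUN (0.32), followed by ATF3 (0.44) and FOS (0.55), while JUNB (1.29) and the rest were farther. This likeness is a description of 6 libraries, largely set by the difference between the groups.

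Other subunits that pair with AP-1 proteins moved in both directions. Of 12 listed partners 11 were tested. Of these 4 fell, beside 14.6% of all genes tested, and 1 rose, beside 10.5%. Their median log2 fold change was -0.09, beside -0.02 for all genes tested. MAFG, which encodes a small Maf protein without an activation domain, rose from 157 ± 17.0 to 219 ± 14.4 CPM (log2 fold change 0.48 ± 0.10 SE, edgeR adjusted p = 0.00766). Among those that fell were its relative MAFF (-0.55, adjusted p = 0.0225), CREB5 (-0.45, adjusted p = 0.0156) and ATF2 (-0.53, adjusted p = 0.0443), CREB5 and ATF2 encoding zipper proteins that pair with c-Jun. ATF2 was named after its values were seen. After the length and GC correction CREB5 (-0.04, adjusted p = 0.714) and ATF2 (-0.18, adjusted p = 0.173) did not pass. Without GPT1 replicate 1 or GPT1 replicate 3, 0 of the partners fell, and without control replicate 1, 1 did. Lower calls over all genes tested were also fewer in these fits, 830 without GPT1 replicate 3 and 1574 without control replicate 1, against 2572.

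The paralogs of EGR1 were near the floor. EGR3, an early growth response gene induced along with EGR1, went from 1.60 ± 0.38 to 0.78 ± 0.08 CPM (log2 fold change -1.05 ± 0.26 SE, edgeR adjusted p = 0.0168), a call that ended without GPT1 replicate 3 (adjusted p = 0.0678). EGR2 (-0.79, adjusted p = 0.132) and the EGR corepressor genes NAB1 (-0.36, adjusted p = 0.152) and NAB2 (-0.27, adjusted p = 0.108) did not pass, NAB2 passing after the length and GC correction (-0.32, adjusted p = 0.00712). EGR4 was too low to be tested, so that 1 of the 4 tested genes fell, beside 14.6% of all genes tested.

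Immediate-early genes beyond the 10 divided as well. Of 22 measured, 10 fell, beside 14.6% of all genes tested, and 3 rose, beside 10.5%, with a median log2 fold change of -0.30. After the length and GC correction 13 fell and 4 rose, beside 2613 lower and 3494 higher of all 17638 genes tested. RHOB, a small GTPase gene, fell from 2193 ± 131 to 1184 ± 82.1 CPM (-0.89 ± 0.09 SE, edgeR adjusted p = 0.000172). IER3, a survival-related early response gene, fell from 26.5 ± 1.84 to 11.3 ± 1.2 CPM (-1.23 ± 0.12, adjusted p = 0.000175), KLF10, a TGF-beta-inducible repressor gene, from 85.2 ± 3.89 to 54.7 ± 1.97 CPM, and the pseudokinase gene TRIB1 from 52.8 ± 4.39 to 33.2 ± 0.48 CPM. The 3 that rose, named after their values were seen, were IER5 (0.42), the antiproliferative gene BTG2 (0.51) and PPP1R15A (0.37), which encodes the phosphatase subunit GADD34 of the stress response. Each of these 3 calls ended without 1 of the GPT1 libraries: IER5 without GPT1 replicate 1 (adjusted p = 0.0502), BTG2 without GPT1 replicate 3 (0.0509) and PPP1R15A without either (up to 0.08). The number that fell was 6 when control replicate 1, or GPT1 replicate 1 or 3, was left out, and the number that rose was 1 without GPT1 replicate 1 or 3. Calls over all genes tested dropped in these fits too. They were 991 higher and 1574 lower without control replicate 1, and 613 higher and 830 lower without GPT1 replicate 3.

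**Figure D4:**
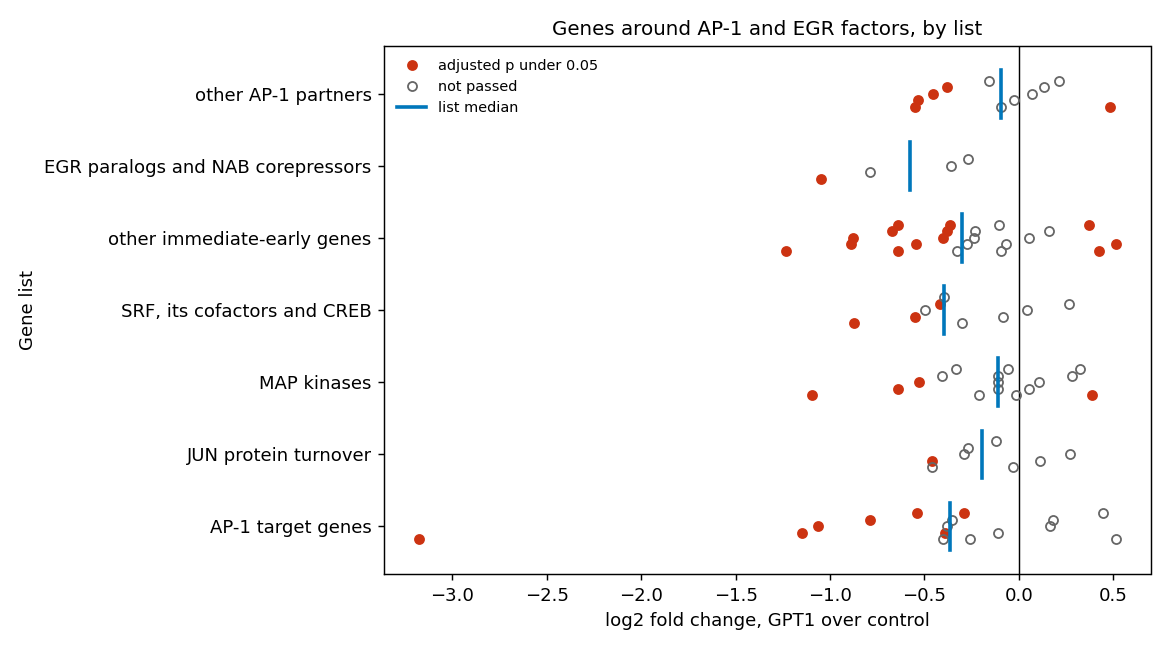
Log2 fold changes (GPT1 over control) of the tested genes of 7 lists around AP-1 and EGR factors, with filled points for genes past an adjusted p of 0.05, open points for those that did not pass, and a bar at the list median. Filled points lie on both sides of 0 among the other AP-1 partners, the other immediate-early genes and the MAP kinases, and on the lower side in the other 4 lists.

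Among transcripts of the kinases and factors known to act upstream of these genes, 7 of 25 passed the test, beside 25.1% of all genes tested. These were 4 of 16 MAP kinase genes and 3 of 9 genes for SRF and CREB factors. Of 16 MAP kinase pathway genes 3 fell, 1 rose and 12 did not pass (median -0.11). Once corrected for length and GC, 3 fell and 3 rose (median -0.00), beside 2613 lower and 3494 higher of all 17638 genes tested. In the uncorrected fit the ERK gene MAPK3 (203 ± 16.9 and 188 ± 7.62 CPM) was among the 12 that did not pass. So was the JNK gene MAPK8 (31.0 ± 3.83 and 26.8 ± 3.61 CPM). Both were named after their values were seen. MAPK10, the mostly neuronal JNK gene, went from 2.01 ± 0.51 to 0.92 ± 0.27 CPM and did not pass after the correction (-0.66, adjusted p = 0.0792). The ribosomal S6 kinase gene RPS6KA3 (-0.64) and the MSK1 gene RPS6KA5 (-0.53) fell and the ERK5 gene MAPK7 rose (0.39), but after the correction RPS6KA3 stood at -0.23 (adjusted p = 0.0369) and RPS6KA5 at 0.03. RPS6KA3 stood at -0.40 without control replicate 3, and 0 of the 16 passed without GPT1 replicate 3. Without GPT1 replicate 1, 1 fell and 0 rose. Fewer of all genes tested passed in these 2 fits as well, with 613 higher and 830 lower without GPT1 replicate 3.

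SRF, the gene of the serum response factor, stood at 165 ± 12.3 and 170 ± 14.1 CPM (log2 fold change 0.04, edgeR adjusted p = 0.759; named after its values were seen). Of the 9 genes for SRF, its cofactors and CREB factors 3 fell and 6 did not pass (median -0.40, and -0.05 after the correction). After the correction 1 fell and 1 rose, beside 2613 lower and 3494 higher of all 17638 genes tested. ELK3, a ternary complex factor gene, fell from 24.4 ± 4.33 to 13.3 ± 1.55 CPM (-0.87 ± 0.15 SE, edgeR adjusted p = 0.00383). MRTFB (-0.42), a coactivator gene of SRF, and CREB1 (-0.55) fell too, but neither passed after the correction (-0.14 and -0.05, adjusted p = 0.207 and 0.645) or when control replicate 1 or 3 or GPT1 replicate 1 or 3 was left out (adjusted p up to 0.174 for MRTFB and 0.151 for CREB1), which left 1 of the 9 lower. MRTFB also did not pass without GPT1 replicate 2. Among 8 genes that control the turnover of the JUN protein, 1 fell, beside 14.6% of all genes tested. It was the deubiquitinase gene USP28 (-0.46 ± 0.10 SE, edgeR adjusted p = 0.0108). The ubiquitin ligase genes FBXW7 (-0.29, adjusted p = 0.143) and ITCH (-0.46, adjusted p = 0.0564) did not pass, nor did DDB1 (0.27, adjusted p = 0.051). DDB1 passed by DESeq2 (adjusted p = 0.0499), limma voom (0.0415) and the length and GC correction (0.00468), among others, while ITCH stood at -0.09 (adjusted p = 0.39) and USP28 at -0.30 (0.00375) after the correction. The USP28 call ended without GPT1 replicate 1 or GPT1 replicate 3 (adjusted p = 0.0559 and 0.0616).

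Of 25 genes listed as AP-1 targets 16 were tested. In edgeR 7 of them fell, beside 14.6% of all genes tested, and 0 rose, beside 10.5%. With control replicate 1 or GPT1 replicate 3 left out 5 fell, where 1574 and 830 of all genes tested fell, against 2572 with all libraries. After the length and GC correction 8 fell, in a fit with 2613 lower and 3494 higher of all 17638 genes tested. The median over the 16 was -0.37. For the count of 0, 1 was higher at an unadjusted p under 0.05, DESeq2 and limma voom likewise called 0 higher, and the corrected fit called 1. LAMB3, a laminin chain gene, fell from 17.1 ± 2.43 to 8.20 ± 1.21 CPM (-1.06 ± 0.15 SE, edgeR adjusted p = 0.00137), and the cyclin D1 gene CCND1 from 74.2 ± 3.90 to 51.0 ± 3.43 CPM (-0.54 ± 0.09 SE, adjusted p = 0.00377). The matrix metalloproteinase genes MMP1, MMP3, MMP7, MMP9, MMP10 and MMP13, classic targets in stromal and invasive cells, were too low to be tested. These targets respond to other factors as well, and the epithelial marker sum was lower in the same libraries (564 to 623 against 897 to 1023 CPM), whose part was not tested.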

How the data were processed

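The authors deposited 1 table of raw read counts per Ensembl gene, with a column per library. Reads were aligned with HISAT2 2.0 to GRCh38, per the submitters' processing notes. The sources used here name no counting tool, annotation or strand option. Total counts were 21255655 to 32487217, and replicates of a group differed by more than sampling noise (chi-square per degree of freedom 9.98 to 30.8). Symbols came from a gene name table (60463 of 60664 identifiers), and positions and transcript lengths from GENCODE 29 on GRCh38.

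The test was that of edgeR 4.0.16 in R 4.3.3, with filterByExpr (17638 genes), TMM factors, glmQLFit and glmQLFTest, two-sided, Benjamini-Hochberg over all genes tested, threshold 0.05. CPM of single genes are TMM-scaled, marker sums use library totals. SEs derive from the F statistic and 95% intervals from the fit's degrees of freedom. Alternatives used DESeq2 1.42.0, limma 3.58.1, other scalings and filters, glmTreat, a stricter threshold, each library left out, a replicate block, and a smooth correction of each library for transcript length and GC content (mgcv 1.9.3; both known for 98.9% of genes tested). The tests were checked on simulated counts without the GC and length trends of these libraries, so that the check does not cover those trends. The genes and lists were chosen with earlier results of these data known. Named genes were the 10, GPT, up to 4 genes per list with the smallest adjusted p, and the 5 nearest to JUN; some genes under this rule are not reported here. Protein sequences were not used here.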

Additional observations from a re-analysis of the deposited data

How the results depend on the processing

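The falls of JUN, FOS, ATF3 and EGR1 held in every alternative and with each library left out, which gave 4 of the 10 genes lower throughout and 5 after the length and GC correction, when JUNB joined them. The count of higher genes among the 10 was 1, not 0, with RLE size factors, upper-quartile factors, a filter of at least 1 CPM in 3 samples (FOSL1 in each) and the length and GC correction (FOSL2), and 0 to 1 with a library left out. JUND ranged from -0.0068 (without GPT1 replicate 1, a change of sign) to 0.28 with a library left out, and RPS6KA5 changed sign after the length and GC correction (0.0309). Over all genes tested, 1858 were higher and 2572 lower. The test against a 1.2-fold change gave 527 and 897, an adjusted p of 0.01 gave 491 and 681, and the length and GC correction gave 3494 higher and 2613 lower, a larger share of higher calls; with a library left out there were 613 to 1970 higher and 830 to 2937 lower. The counts were lowest without GPT1 replicate 3 (613 and 830), GPT1 replicate 1 (645 and 941) and control replicate 1 (991 and 1574). The cause of these shifts was not tested. The difference in the JUN share of the Jun pool (GPT1 minus control, -12.5 percentage points) was -15.7 with median transcript lengths and -7.97 without length, and -13.9 to -11.0 with a library left out. That of FOSL1 and FOSL2 in the Fos pool (13.9) was 18.4, 8.29 and 12.2 to 14.9. With the replicate number as a block, 1416 genes were higher and 2470 lower, and 4 of the 10 genes fell and 0 rose. Same-numbered libraries correlated at 0.14, -0.28 and -0.08 in their deviations from the group means. With 3 libraries per group and differing GC trends, this cannot decide whether the numbers pair the samples. Of the named genes of the lists, 1 in the block fit gained a call, ITCH, and those that lost theirs included MRTFB and MAPK7. Low counts limit FOSB (24 to 85 per library), FOS (53 to 198) and EGR2 (9 to 37), among others.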
